A study of Mus musculus with 7 samples.

Results

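The photoreceptor cilium and intraflagellar transport genes described here are 46 mouse genes that encode parts of primary cilia, taken from the count table of the series by gene symbol. They occupied 47 of its 48440 rows, because *Rp1* is listed under a second identifier with 0 counts in every library. All 46 genes were among the 20019 that held enough counts to be tested. Of these, 6 are known for high expression in photoreceptors (*Rp1*, *Rp1l1*, *Fam161a*, *Rpgrip1*, *Tulp1* and *Unc119*) and are called photoreceptor-enriched below. The other 40 are general cilium genes: 14 for intraflagellar transport, 2 for kinesin-2 motors, 9 for the BBSome and the proteins around it, and 15 for the transition zone, the connecting cilium, ciliary GTPases and a tubby-like protein.

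A primary cilium is a microtubule rod that grows from a basal body and is walled off from the cytoplasm by a transition zone. Its cargo travels on trains of intraflagellar transport (IFT) proteins, built of IFT-B and IFT-A complexes. Kinesin-2 moves the trains outward and dynein-2 moves them back. The BBSome, a coat of Bardet-Biedl syndrome proteins, moves membrane proteins out of the cilium. In photoreceptors the cilium is remodelled into the outer segment, where phototransduction takes place, and the transition zone is drawn out into the connecting cilium. Mutations in many of these genes cause retinal degeneration, alone or as part of a syndrome.

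Bulk RNA-seq was performed on pooled whole retinas of E16 mouse embryos, and all embryos carried the Chx10-Cre transgene. The WT group (Chx10Cre, no floxed allele) was 1 library of 6 retinas. The Het group (Chx10Cre;Ptbp1lox/WT) had 3 libraries of 5, 5 and 6 retinas, and the KO group (Chx10Cre;Ptbp1lox/lox) had 3 libraries of 4, 4 and 6. In the floxed allele, loxP sites flank the promoter and first exon of *Ptbp1*, an RNA-binding repressor of neuronal exons. Cre is driven in retinal progenitors, so cells of other origin in the dissected tissue keep the gene. The comparison asked how the loss of both copies of *Ptbp1*, against the loss of a single copy, changed the RNA of cilium genes while photoreceptors are being born. Nothing in the labels says that libraries of a group came from separate litters, so the p-values measure the spread between these pools.

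The libraries held 120593979 to 171117305 counts on genes. *Ptbp1* was at 381 CPM (counts scaled to the library size after TMM normalization) in WT, at 210 to 234 CPM in Het and at 6.04 to 46.9 CPM in KO. Retinal progenitor markers were abundant in every library, with *Six3* at 440 to 506 CPM. Het1 stood apart: all 11 tested skeletal muscle markers had their highest value there, and their summed level was 344 CPM against 5.20 to 6.18 CPM in the other 6 libraries. Pigment cell markers summed to 557 CPM in Het1 and to 43.2 to 82.7 CPM elsewhere. Lens markers summed to 3.31 to 89.8 CPM, lowest in KO1, and erythroid markers to 24.0 to 467 CPM, lowest in KO2. *Rpe65* of the pigment epithelium and *Lim2* of the lens were at or near 0 throughout. The part of these tissues in the values below was not tested, but calls lost without Het1 are named.

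Of the 46 cilium genes, 6 were differentially expressed between KO and Het (13%), beside 7.22% of all genes tested. A gene was called at a Benjamini-Hochberg adjusted p below 0.05 in edgeR's quasi-likelihood test and a change of more than 20% (0.263 on the log2 scale). *Rp1*, *Rpgrip1*, *Tulp1* and *Bbs2* rose in KO, and *Ift27* and *Mks1* fell. Among all genes tested, 4.01% were called higher and 3.21% lower. The photoreceptor-enriched genes held 3 of the 4 rises, with 3 of 6 called and a median log2 fold change of 0.45. Of the 40 general genes 3 were called (7.5%), close to the background, and their median log2 fold change was 0.02. The median of all genes tested was -0.0047. The general genes moved little in either direction: 24 of 40 changed by less than 0.1 on the log2 scale. The median size of their change was 0.08, against 0.155 over all genes tested. The general genes had a median level of 27.8 CPM in Het, and the genes tested were not matched to them for level. The part of expression level in this difference was not tested. Het and KO values were fully separate in 19 of the 46 genes, 10 higher and 9 lower in KO, beside 36.3% of all genes. No test was made between the lists themselves.

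**Figure D1:**
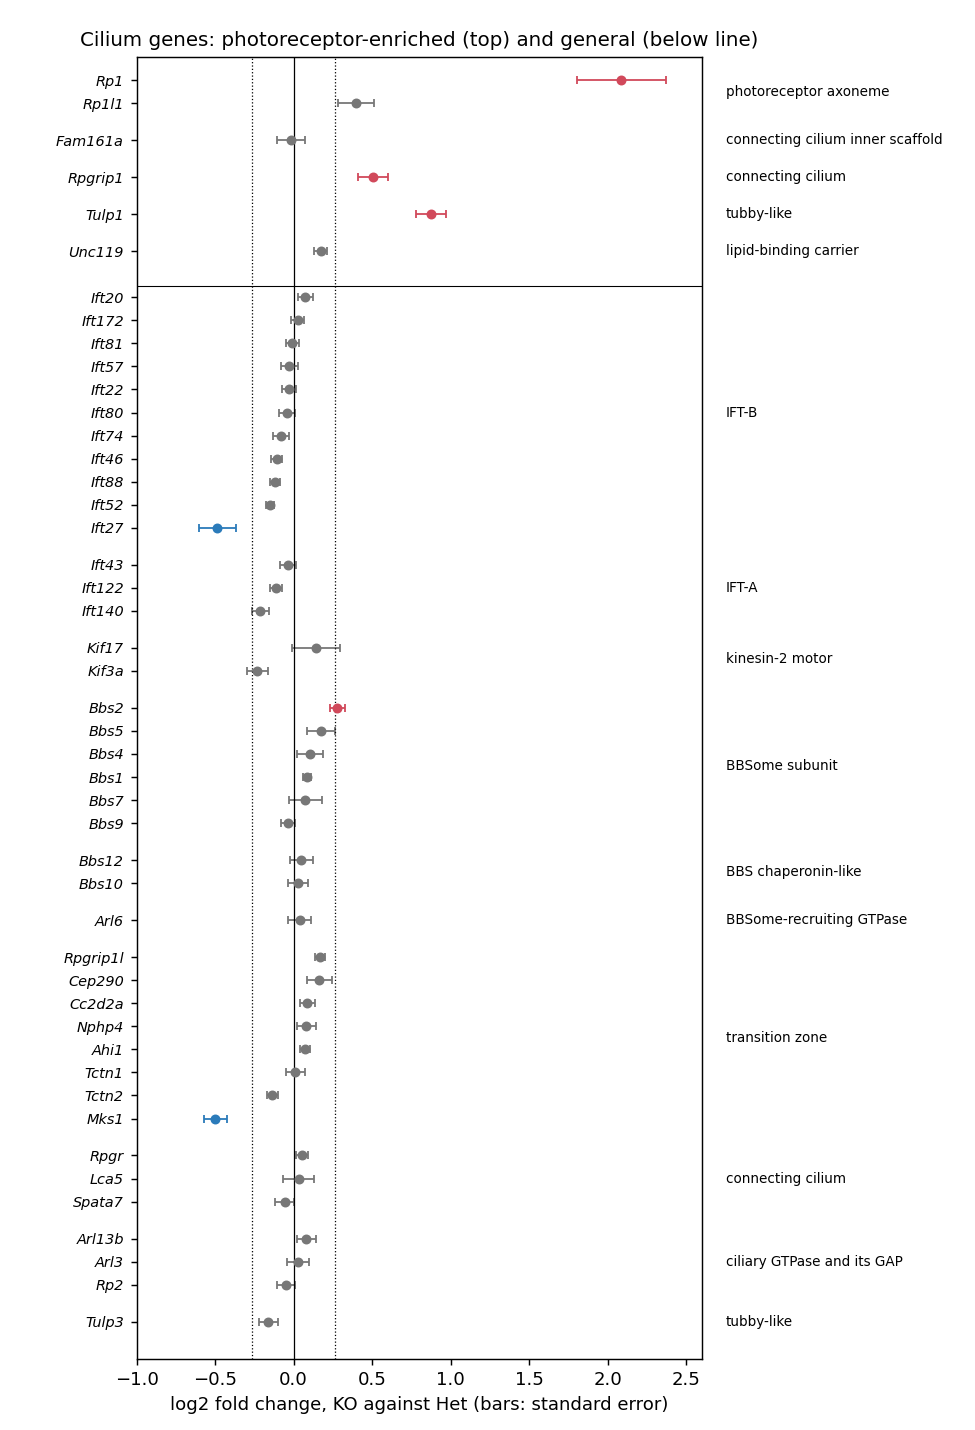
Log2 fold change of KO against Het (x axis) for each of the 46 cilium genes, grouped by role, with bars for the standard error from edgeR. Red points were called higher, blue points called lower and grey points not called, and dotted lines mark the 20% limit. Of the 4 red points 3 are in the photoreceptor-enriched block above the line, and most general genes lie within 0.1 of 0.

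**Figure D2:**
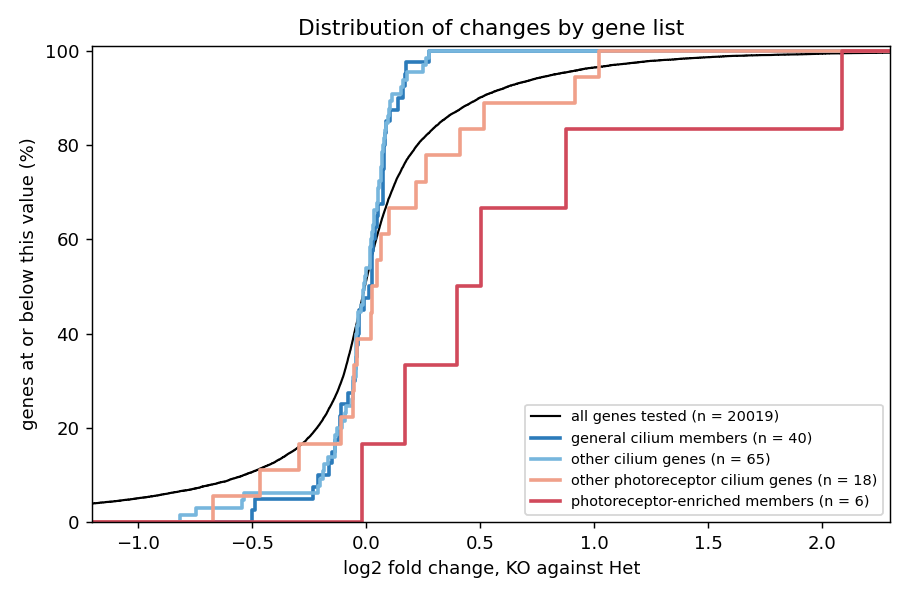
Cumulative share of genes (y axis, %) at or below each log2 fold change of KO against Het (x axis), for all 20019 genes tested and for 4 lists of cilium genes. The curve of the 40 general cilium genes is steeper than that of all genes, and the curve of the 6 photoreceptor-enriched genes lies to the right of both. The lists were not matched for expression level.

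Promoter sequence was taken from RefSeq (GRCm38.p6) for 41 of the 46 genes, which had 50 annotated starts. *Rp1*, *Rp1l1*, *Ift80*, *Ift81* and *Ift122* had no entry. The 250 bases before the start of the 5 called genes with an entry follow, since these genes moved in different directions. Each is written 5′ to 3′ on the strand of its gene, and capitals mark a TAATCC core, the motif bound by the photoreceptor factors CRX and OTX2, or a match to the loose X-box, the motif of the RFX factors of ciliated cells. This X-box has the arms GTNNCC and GNNAC, spaced by 3 bases of any kind (N). *Tulp1* is taken from chr17:28365217-28365466 (minus strand), *Rpgrip1* from chr14:52110653-52110902 (plus), *Bbs2* from chr8:94098510-94098759 (minus), *Ift27* from chr15:78174082-78174331 (minus) and *Mks1* from chr11:87852965-87853214 (plus).
Tulp1: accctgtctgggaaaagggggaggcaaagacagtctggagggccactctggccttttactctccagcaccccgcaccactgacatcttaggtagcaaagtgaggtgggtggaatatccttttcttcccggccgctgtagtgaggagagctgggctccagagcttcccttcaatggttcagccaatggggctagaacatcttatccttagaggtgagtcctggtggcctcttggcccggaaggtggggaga
Rpgrip1: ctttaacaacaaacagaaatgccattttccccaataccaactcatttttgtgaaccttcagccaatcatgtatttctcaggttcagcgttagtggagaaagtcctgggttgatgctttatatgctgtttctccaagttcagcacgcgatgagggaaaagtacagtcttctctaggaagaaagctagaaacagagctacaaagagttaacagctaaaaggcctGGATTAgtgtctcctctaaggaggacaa
Bbs2: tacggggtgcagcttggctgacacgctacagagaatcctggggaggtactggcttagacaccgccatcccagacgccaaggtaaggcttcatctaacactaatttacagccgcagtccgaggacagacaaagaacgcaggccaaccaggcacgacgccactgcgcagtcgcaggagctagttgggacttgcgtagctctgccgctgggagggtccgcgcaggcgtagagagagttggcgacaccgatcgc
Ift27: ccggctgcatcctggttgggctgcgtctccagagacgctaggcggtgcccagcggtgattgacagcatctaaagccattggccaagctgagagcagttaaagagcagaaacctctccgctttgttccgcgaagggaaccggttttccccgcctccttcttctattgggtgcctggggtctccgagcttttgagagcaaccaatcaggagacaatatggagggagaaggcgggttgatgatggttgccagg
Mks1: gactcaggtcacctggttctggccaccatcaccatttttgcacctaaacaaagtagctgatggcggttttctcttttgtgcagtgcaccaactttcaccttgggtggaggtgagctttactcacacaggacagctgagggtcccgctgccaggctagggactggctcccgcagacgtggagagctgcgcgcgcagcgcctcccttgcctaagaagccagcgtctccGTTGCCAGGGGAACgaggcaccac

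The search covered 300 bases around each start, 250 before and 50 after, on both strands. The TAATCC core was in 3 of the 50 cilium gene promoters (6%), beside 7.06% of all 32851 promoters in the table. These were promoters of *Rpgrip1*, where it lies on the minus strand 28 bases before the start as GGATTA, *Unc119* and *Bbs1*. The loose X-box was in 10 of 50 (20%), beside 4.62% of all promoters. All 10 belonged to general genes (*Ahi1*, *Bbs1*, *Bbs4*, *Bbs7*, *Ift22*, *Ift57*, *Mks1*, *Nphp4*, *Tctn1* and *Tctn2*). None of the 7 promoters of photoreceptor-enriched genes, which came from 4 genes, held a match. So few promoters cannot show a difference from the general genes. In *Mks1* the loose X-box reads GTTGCCAGGGGAAC, 24 bases before the start. The arm GTTGCC on its own, which overlaps many of these matches, was in 18 of 50 (36%) beside 12.5%, also in none of the 7. A strict X-box, GTTNCC and GGNAAC with AT between them, was in 0 of 50, beside 0.128%, and the proneural E-box CAGATG in 7 of 50 (14%), beside 17.2%. Of the genes with a loose X-box, *Mks1* was called and the other 9 were not. A match describes the letters of a window, not a bound site.

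*Rp1* and *Rp1l1* encode doublecortin-domain proteins on the microtubules of the photoreceptor axoneme. *Rp1* (ENSMUSG00000025900.11, chr1:3999557-4409241, GRCm38) was at 1.09 CPM in WT, at 3.10, 2.02 and 1.62 CPM in the Het libraries and at 12.3, 7.91 and 8.44 CPM in the KO libraries. The libraries are given in the order of their replicate numbers, here and below. All 3 KO values exceeded all 3 Het values, and WT was the lowest. The log2 fold change of KO against Het was 2.09 (SE 0.28), the largest among the 46 genes, with an adjusted p of 0.0105 by edgeR. The call was lost in 1 of 14 alternative fits, without Het2, where the adjusted p was 0.0602. Without Het1 the log2 fold change was 2.39 (adjusted p 0.0080).

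*Rp1l1* (ENSMUSG00000046049.6, chr14:63992506-64035025) had 8.22 CPM in WT, with Het libraries at 11.1, 10.4 and 10.03 CPM and KO libraries at 16.2, 13.2 and 12.1 CPM. The genotypes did not overlap, with WT lowest and KO1 highest, but the gene was not called. Its log2 fold change was 0.40 (SE 0.12, 95% interval 0.17 to 0.63) with an edgeR adjusted p of 0.0722, which ranged from 0.0070 to 0.474 over 14 alternatives. It passed under DESeq2 (0.0070), with a block for the replicate number (0.0447) and without KO3 (0.0400).

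*Tulp1*, a tubby-like protein needed for the transport of rhodopsin and other outer segment proteins, was the only one of the 46 genes called in all 14 alternatives. The gene (ENSMUSG00000037446.13, chr17:28351515-28365222) was at 17.4 CPM in WT, at 23.6, 20.4 and 20.4 CPM in the Het libraries and at 44.4, 36.9 and 36.9 CPM in the KO libraries. The KO libraries lay well above the Het libraries, which differed little among themselves. The KO mean was 39.4 ± 4.35 CPM and the Het mean 21.5 ± 1.83 CPM (SD over 3 libraries each), a log2 fold change of 0.88 (SE 0.09) with an adjusted p of 0.0065 by edgeR. Over the alternatives the adjusted p ran from 8e-18 to 0.0425. *Tulp3*, its general relative, which carries receptors into primary cilia of many tissues, had 39.1 CPM in WT, 32.3 to 34.7 CPM in Het and 27.8 to 32.4 CPM in KO. Het1 and KO3 of *Tulp3* lay close together, so the groups overlapped by a narrow margin, with a log2 fold change of -0.16 (adjusted p 0.136).

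*Rpgrip1* anchors the RPGR protein in the connecting cilium of photoreceptors. The gene (ENSMUSG00000057132.15, chr14:52110704-52163546) had 4.14 CPM in WT, with Het libraries at 5.11, 4.30 and 4.63 CPM and KO libraries at 6.34, 7.11 and 6.51 CPM. All KO libraries were above all Het libraries, and here KO2 was the highest. The log2 fold change was 0.51 (SE 0.10) with an edgeR adjusted p of 0.0238. The call was lost without Het2 (0.0896), Het3 (0.0905) or KO2 (0.0852), with the replicate block (0.0584) and in the test against the fold limit itself, with a range of 2.4e-04 to 0.178 over 14 alternatives. An exon of *Rpgrip1* overlaps *Supt16* on the opposite strand, and the counting may not have used strand. *Supt16* itself was at 249 to 263 CPM in all libraries with a log2 fold change of 0.01 (adjusted p 0.911).

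*Rpgrip1l* and *Rpgr* give the general counterparts of that complex. *Rpgrip1l*, the paralog of *Rpgrip1* at the transition zone of most cilia, was at 31.7 to 32.3 CPM in Het and 35.2 to 37.0 CPM in KO. Its groups did not overlap and its adjusted p was 0.0233, but its log2 fold change of 0.17 was under the limit. *Rpgr*, the GTPase regulator that both proteins bind, had 40.5 ± 0.32 CPM in Het and 42.0 ± 2.04 CPM in KO (SD over 3 libraries each), a log2 fold change of 0.05 with an edgeR adjusted p of 0.395.

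*Unc119* encodes a carrier that shields the lipid tail of acylated proteins such as transducin. It was at 69.3 CPM in WT, at 69.8, 66.4 and 66.9 CPM in the Het libraries and at 80.3, 74.6 and 74.1 CPM in the KO libraries. KO libraries were all higher than Het libraries, by a small margin. Its log2 fold change was 0.17 (SE 0.04) with an edgeR adjusted p of 0.0429, under the fold limit and so not called, and without Het1 the adjusted p was 0.0597. *Unc119b*, its broadly expressed paralog, changed by 0.10 (adjusted p 0.0884).

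*Fam161a*, a microtubule protein of the inner scaffold of the connecting cilium, was the exception among the 6. It had 7.505 CPM in WT, with Het libraries at 7.24, 7.22 and 6.56 CPM and KO libraries at 7.06, 6.25 and 7.49 CPM. The genotypes overlapped fully, with the lowest and the highest Het or KO value both in KO. Its log2 fold change was -0.02 (95% interval -0.19 to 0.16, adjusted p 0.924). A change over 20% in either direction lay outside this interval, which is a normal approximation and somewhat too narrow.

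**Figure D3:**
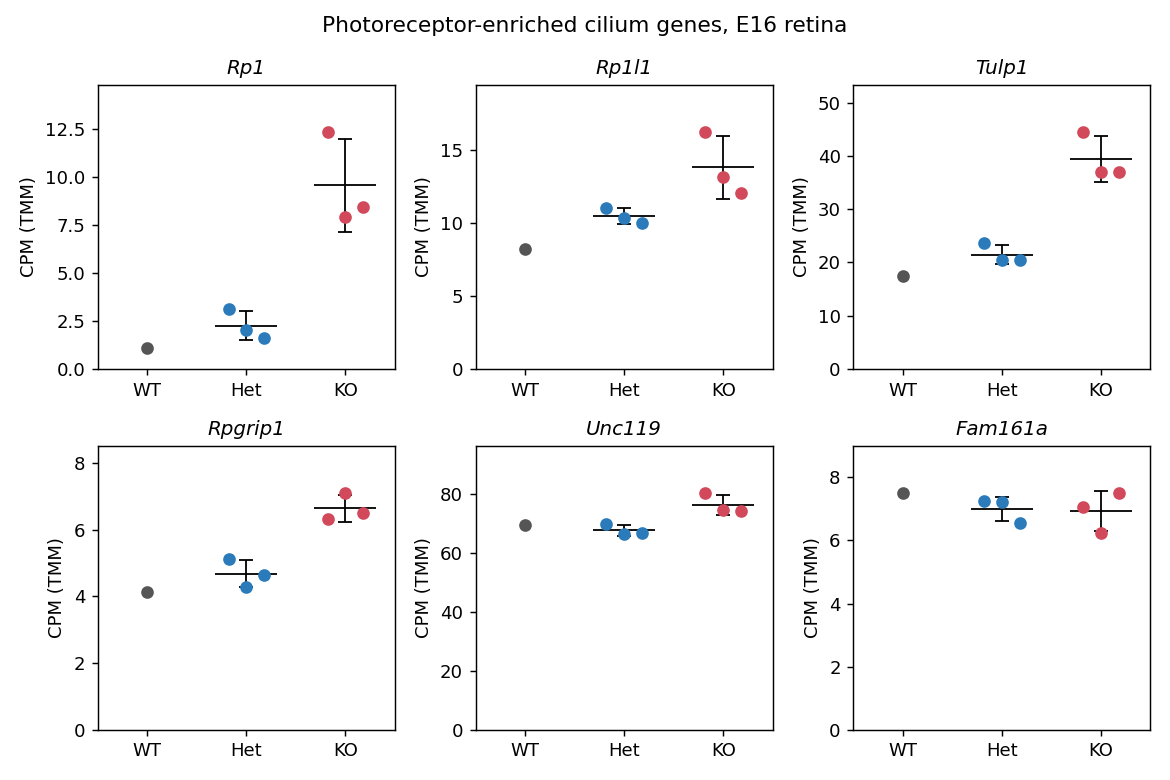
Expression (y axis, CPM after TMM normalization) of the 6 photoreceptor-enriched cilium genes in WT (grey, 1 library), Het (blue, 3) and KO (red, 3). Horizontal lines are means and bars are ± 1 SD. The KO points lie above the Het points in 5 genes, and *Fam161a* shows overlapping groups.

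Markers of photoreceptors and of other retinal cell types also shifted, in differing directions. Of 19 tested photoreceptor markers 12 were called higher in KO and 0 lower, beside 4.01% and 3.21% of all genes, with a median log2 fold change of 0.55. The count of 12 was unchanged without Het1 but was 3 without Het2 and 5 without Het3. Those that rose included the rod factors *Nrl* (1.41) and *Nr2e3* (3.34) and the cone opsin *Opn1sw* (1.99), whereas the early factors *Crx* (0.20, adjusted p 0.116) and *Otx2* (0.12, adjusted p 0.216) were not called. The summed level of the markers was 861 CPM in WT, 969 to 1084 CPM in Het and 1253 to 1447 CPM in KO, highest in Het1 and in KO1 within their groups. Amacrine and horizontal cell markers had 3 of 9 called higher (median 0.23) and summed to 471 to 510 CPM in Het and 586 to 645 CPM in KO. Ganglion cell markers had 3 of 10 called lower (median -0.23) and summed to 3303 to 3455 CPM in Het and 2731 to 3095 CPM in KO, and progenitor markers had 2 of 12 called lower (median -0.09). These counts also depended on single libraries. The ganglion cell count was 1 without Het2 or Het3 and 4 without KO2. The progenitor count was 0 without Het2 and 1 without Het3 or KO2. The amacrine and horizontal count was 2 without Het2, Het3, KO1 or KO2. The part of these shifts in the cilium gene values was not tested. In whole retinas, more photoreceptors and more RNA per photoreceptor cannot be told apart.

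Levels were also set against *Crx*, a ratio chosen after the values were seen. *Crx* was not called and changed less than the markers *Nrl*, *Nr2e3* and *Opn1sw*. A ratio to it leaves most of a larger change in place, and ratios to those markers were not made. Separation on this scale therefore cannot show a rise beyond photoreceptor content. *Tulp1* had 10.1 reads per 100 *Crx* reads in WT, 12.9 to 14.02 in Het and 20.7 to 22.4 in KO. *Rp1* had 0.631 in WT, 1.09 to 1.84 in Het and 4.44 to 6.22 in KO. Both genes stayed separated on this scale, with WT the lowest library. *Rp1l1* and *Rpgrip1* did as well, by smaller gaps. *Rp1l1* had 4.77 in WT, 6.54 to 6.73 in Het and 7.14 to 8.19 in KO. *Rpgrip1* had 2.40 in WT, 2.71 to 3.11 in Het and 3.20 to 3.99 in KO, where Het and KO came close to each other.

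Het1 was the highest Het library in all 6 photoreceptor-enriched genes. WT lay below every Het library in *Rp1*, *Rp1l1*, *Rpgrip1* and *Tulp1*. With 1 WT library this order has no replicate check. Divided by exon length in kilobases (RPKM, from CPM), the Het means ran from 0.182 for *Rp1* and 0.385 for *Rpgrip1* through 1.38 for *Rp1l1*, 1.59 for *Fam161a* and 3.22 for *Tulp1* to 27.6 for *Unc119*. In KO *Rp1* was at 0.777 and *Tulp1* at 5.91 RPKM. The general genes had a median of 5.19 RPKM in Het and 5.04 RPKM in KO, so the photoreceptor-enriched genes other than *Tulp1* and *Unc119* were below that median in both genotypes.

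The 14 IFT genes changed little, and 12 of them had a negative log2 fold change. Among all genes tested, 49.0% had a positive one. The IFT median was -0.06, and 1 of 14 was called, *Ift27* (7.14%, beside 7.22% of all genes tested). The summed IFT level was 614 CPM in WT, 608 to 626 CPM in Het and 572 to 593 CPM in KO, so each KO library was below each Het library. For 6 of the 14 genes the KO libraries were all lower, and for 0 all higher, beside 17.7% of all genes with separation to lower values.

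*Ift27* encodes a small GTPase of the IFT-B train that links it to the BBSome. The gene (ENSMUSG00000016637.6, chr15:78159463-78174107) was at 24.5 CPM in WT, at 27.7, 20.3 and 24.5 CPM in the Het libraries and at 18.4, 17.5 and 15.9 CPM in the KO libraries. KO libraries were all lower, but the Het libraries were the most spread of any IFT gene. The means were 24.1 ± 3.73 CPM in Het and 17.3 ± 1.28 CPM in KO (SD over 3 libraries each), with a log2 fold change of -0.49 (SE 0.12) and an edgeR adjusted p of 0.0471. The call held in 7 of 14 alternatives and was lost in every fit that left out a library (Het1 0.0783, Het3 0.134, KO1 0.0708, KO2 0.128, KO3 0.0953) except that without Het2, and with the replicate block (0.0517). The adjusted p ranged from 2.2e-04 to 0.298.

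Among the other 10 IFT-B genes *Ift52*, a core subunit, was at 51.6 to 53.4 CPM in Het and 46.8 to 48.1 CPM in KO. Its groups were separate and its spread narrow, with a log2 fold change of -0.15 and an adjusted p of 0.0208 by edgeR, under the fold limit. *Ift88*, whose mutation gives the Oak Ridge polycystic kidney mouse, was at 25.8 to 26.1 CPM in Het and 23.8 to 24.0 CPM in KO (log2 fold change -0.12, adjusted p 0.0712). *Ift20*, the subunit that also sits at the Golgi, and *Ift172* were the 2 IFT genes with positive values, of 0.08 and 0.03. In the remaining 6, *Ift22*, *Ift46*, *Ift57*, *Ift74*, *Ift80* and *Ift81*, log2 fold changes ran from -0.11 to -0.01. The signs of *Ift57*, *Ift81* and *Ift172* turned in single fits that left out a library.

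Of the 3 IFT-A genes, whose complex is needed for return transport, none was called. *Ift140* (ENSMUSG00000024169.15, chr17:25016085-25099495) had 69.0 CPM in WT, with Het libraries at 71.3, 74.6 and 75.9 CPM and KO libraries at 68.2, 64.0 and 59.3 CPM. KO libraries were all lower, KO3 the most, with a log2 fold change of -0.21 (SE 0.05) and an adjusted p of 0.0540 by edgeR. *Ift122* changed by -0.11 (adjusted p 0.0984) and *Ift43* by -0.04 (adjusted p 0.646). Of the kinesin-2 motors, *Kif3a*, the shared outward motor subunit, had the highest level per exon length of all 46 genes, 39.8 RPKM in Het and 33.9 RPKM in KO. It was at 127 to 153 CPM in Het and 120 to 123 CPM in KO, separate but with a wide Het spread (log2 fold change -0.23, adjusted p 0.0751), and it was called in 1 of 14 alternatives, without Het3 (-0.31, adjusted p 0.0261). *Kif17*, the homodimeric motor studied in photoreceptors, was the lowest of the general genes, at 0.701 to 0.898 CPM in Het and 0.833 to 0.890 CPM in KO (0.14, adjusted p 0.570).

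Of the 9 genes of the BBSome and its helpers, 8 had a positive log2 fold change, beside 49.0% of all genes tested. Their median was 0.08, and 1 was called (11.1%, beside 7.22% of all genes tested). *Bbs2* (ENSMUSG00000031755.5, chr8:94067954-94098928), a propeller subunit of the BBSome core, was at 18.7 CPM in WT, at 18.5, 19.2 and 17.8 CPM in the Het libraries and at 23.1, 22.1 and 22.2 CPM in the KO libraries. WT and Het lay together and every KO library was higher. The log2 fold change was 0.28 (SE 0.05), just above the limit, with an edgeR adjusted p of 0.0185. It was lost without Het2 (0.0613), Het3 (0.0712) or KO2 (0.0612), and without KO1 its change of 0.26 was under the fold limit, with adjusted p from 2.4e-04 to 0.808 over 14 alternatives.

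The other 5 BBSome subunits had log2 fold changes from -0.03 (*Bbs9*) to 0.18 (*Bbs5*, adjusted p 0.237). *Bbs7*, a propeller subunit like *Bbs2*, was lower in WT (15.0 CPM) than in any other library (19.2 to 22.8 CPM in Het, 19.2 to 23.9 CPM in KO), and its Het and KO groups overlapped (0.08, adjusted p 0.662). The chaperonin-like *Bbs10* and *Bbs12*, which help assemble the complex, changed by 0.03 and 0.05, and *Arl6*, the GTPase that brings the BBSome to membranes, by 0.04 (adjusted p 0.747). The signs of *Arl6* and *Bbs12* also turned when single libraries were left out.

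Transition zone genes gave 1 call among 8 (12.5%, beside 7.22% of all genes tested). *Mks1* (ENSMUSG00000034121.12, chr11:87853215-87863803), a B9-domain protein of the module mutated in Meckel syndrome, had 9.65 CPM in WT, with Het libraries at 8.39, 8.70 and 9.40 CPM and KO libraries at 6.05, 6.16 and 6.55 CPM. All KO libraries were below WT and Het, and both groups were narrow. The means were 8.83 ± 0.51 CPM in Het and 6.25 ± 0.26 CPM in KO (SD over 3 libraries each), a log2 fold change of -0.50 (SE 0.07) with an adjusted p of 0.0126 by edgeR. It was called in 11 of 14 alternatives and lost without Het2 (0.0575), without Het3 (0.0527) and in the test against the fold limit (0.102).

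None of the other 7 transition zone genes was called. *Tctn2* had a log2 fold change of -0.14 (adjusted p 0.0602), *Tctn1* of 0.01 (adjusted p 0.911) and *Cc2d2a* of 0.09 (adjusted p 0.280), by edgeR. *Cep290*, the large linker between microtubules and membrane whose human counterpart is mutated in Leber congenital amaurosis, was at 19.4 to 21.7 CPM in Het and 21.6 to 25.6 CPM in KO (0.16, adjusted p 0.219). *Nphp4* changed by 0.08 (adjusted p 0.410) and *Ahi1*, the most abundant of the 8 in CPM, by 0.07 (adjusted p 0.171).

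The remaining general genes include retinal disease genes that act in photoreceptors but are expressed broadly. *Spata7* and *Lca5*, of the connecting cilium and of Leber congenital amaurosis, changed by -0.06 (95% interval -0.17 to 0.06) and 0.03 (-0.16 to 0.23). Counted with the photoreceptor-enriched genes they left the number called at 3, now of 8. *Arl3*, the GTPase that releases lipid-bound cargo from UNC119, had a log2 fold change of 0.03, its regulator *Rp2* of -0.05, and *Arl13b*, the exchange factor of *Arl3* in the cilium membrane, of 0.08. None of these 5 was called, and Het and KO libraries overlapped in all of them.

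**Figure D4:**
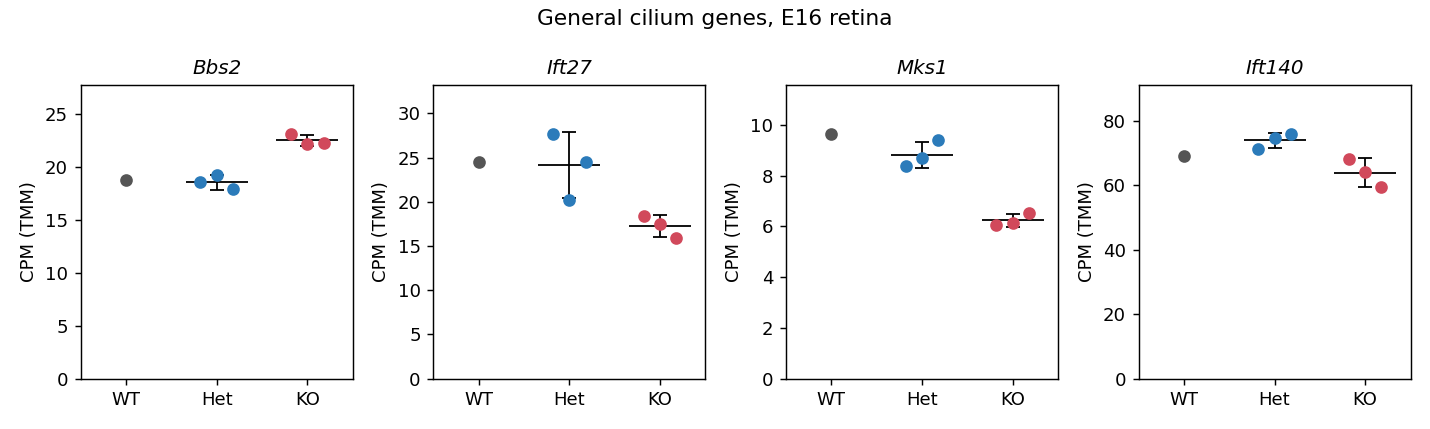
Expression (y axis, CPM after TMM normalization) of the 3 called general cilium genes and of *Ift140* in WT (grey, 1 library), Het (blue, 3) and KO (red, 3). Horizontal lines are means and bars are ± 1 SD. *Bbs2* lies higher in KO, the other 3 genes lower, and the Het libraries of *Ift27* are spread from 20.3 to 27.7 CPM.

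Replicate spread was small for most general genes, with a median coefficient of variation of 3.54% in Het and 4.62% in KO, and larger for the photoreceptor-enriched genes, with 6.997% and 10.1%. The summed level of the 40 general genes was 1450 CPM in WT, 1425 to 1460 CPM in Het and 1379 to 1427 CPM in KO. The median log2 fold change of the general genes turned negative without Het1 (-0.0064) and without KO1 (-0.016), while that of the photoreceptor-enriched genes stayed between 0.41 and 0.51 in the fits that left out 1 library.

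Wider lists of cilium genes, which the 46 do not hold, were read beside them. Of 65 other general cilium genes 3 were called (4.62%, beside 7.22% of all genes), with a median log2 fold change of -0.01. *Invs*, which encodes inversin of the proximal cilium, was at 14.8 CPM in WT, at 9.59, 9.95 and 10.2 CPM in the Het libraries and at 5.43, 5.94 and 6.36 CPM in the KO libraries. It fell by 0.74 on the log2 scale (SE 0.08, edgeR adjusted p 0.0058) and was called in 14 of 14 alternatives. *Tub*, the founding tubby gene, fell by 0.54 (adjusted p 0.0189), a call lost without Het2 (0.0772) or Het3 (0.0721). *Wdr60*, a dynein-2 chain of return transport, rose by 0.28 (adjusted p 0.0433) but was called in 6 of 14 alternatives. Its call was lost without Het1 (0.0924), Het2 (0.124), Het3 (0.134), KO1 (0.0865) or KO3 (0.0805), with the replicate block (0.0719), without a filter (0.0516) and under glmTreat (0.857), and the lowest adjusted p was 0.0051.

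Of 18 other genes of the photoreceptor cilium and its periciliary membrane 4 rose (22.2%) and 0 fell, beside 4.01% and 3.21% of all genes, with a median of 0.04. Under DESeq2 2 of them were called lower, and 1 in 5 other alternatives. *BC027072*, the mouse gene of the outer segment protein PCARE, was at 1.06 CPM in WT, 1.80 to 2.302 CPM in Het and 3.43 to 5.28 CPM in KO (1.02, adjusted p 0.0279). Its call was lost without Het2 (0.109), Het3 (0.104) or KO2 (0.0607). *Pcdh15*, a cadherin gene, rose by 0.52 (adjusted p 0.0118), and the ciliary kinase gene *Mak*, named after its value was seen, by 0.41 (adjusted p 0.0118). Both calls were lost without Het2 (*Pcdh15* 0.0581, *Mak* 0.0571) or Het3 (0.0523 and 0.0533).

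Gene position was examined because called genes were not spread evenly over the genome. In windows of the 100 nearest tested genes, the median share called was 6% and the 95th percentile 15%. *Ift140* lay in a window of chromosome 17 where 31 were called, 25 of them lower in KO. On chromosome 16, 20 were called around *Arl6*, 19 around *Arl13b* and 17 around *Ift57*, also mostly lower, while these 3 genes changed by 0.04, 0.08 and -0.03. The windows of the called cilium genes held 15 for *Tulp1* (5 of them lower in KO), 14 for *Mks1* (10 lower, as *Mks1* was), 13 for *Bbs2* (2 lower), 8 for *Ift27* (4 lower) and 6 for *Rpgrip1* (1 lower). Those of *Tulp1* and *Mks1* were at and just under the 95th percentile. The window of *Rp1*, near the end of chromosome 1, held 1 of 52. Among the 46 genes, 10 share exon sequence with another gene of the annotation, among them *Rpgrip1*, *Cep290*, *Ift88*, *Kif17*, *Arl6*, *Bbs4* and *Rpgr*, so their counts are less certain.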

How the data were processed

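The authors aligned RNA-seq reads of 7 retina libraries to GRCm38 with STAR (GENCODE M10) and counted them on genes with featureCounts. The deposited values are these raw counts per gene, without normalization. Strand and multi-mapping settings are not given in the sources used here. The 7 libraries were grouped by the genotype in their labels. Counts of the 20019 genes kept by filterByExpr were TMM-normalized and fitted with edgeR 4.0.16 (R 4.3.3, glmQLFit and glmQLFTest) with a mean per genotype over all 7 libraries, and KO was compared with Het. Calls needed a Benjamini-Hochberg adjusted p below 0.05 over all genes tested and a log2 fold change beyond 0.263, the limits in the study's methods. SE is the log2 fold change over the square root of F. The 95% intervals come from it by a normal approximation, which ignores the few degrees of freedom of the test, so they are too narrow. For *Bbs5* the interval was 0.0017 to 0.351 although its p by edgeR was 0.0903. An exact permutation test of 3 against 3 libraries cannot go below p = 0.1, so none was run. WT has no replicate and carries no error.

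The members and lists were chosen with earlier results of these data known. Full statistics were given for the photoreceptor-enriched genes and for each called gene, other genes by group with the largest change in each role, and of other lists up to 3 called genes. Alternatives were DESeq2 1.42.0, upper-quartile or RLE factors, all genes unfiltered or only those with 10 or more counts in every library, a fit of Het and KO without WT, a block for the replicate number, leaving out each library, adjusted p alone, glmTreat and a widened list. The scripts were tested on simulated data. Coordinates and exon lengths are from GENCODE M21 on GRCm38, promoters from RefSeq. Replicates differed by 14.1 to 53.6 times the counting variance, so none was a copy. Splicing was not analysed here. The results for some genes of the lists are not reported here.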

Additional observations from a re-analysis of the deposited data

How the results depend on the processing

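The 6 called cilium genes were called again under RLE and upper-quartile normalization, without a filter, with at least 10 counts in every library, and with Het and KO alone, and DESeq2 added *Rp1l1*. The test against the fold limit itself (glmTreat) gave 217 genes in all, 2 cilium genes (*Rp1* and *Tulp1*), 0 general genes, 1 other cilium gene and 1 other photoreceptor cilium gene. An adjusted p below 0.05 alone gave 2221 genes in all, 5 general genes and 5 other cilium genes. With 1 library left out, calls ran from 386 to 1673 over all genes, 2 to 6 for the 46 cilium genes, 1 to 4 for the photoreceptor-enriched genes, 1 to 2 for the general genes, 1 to 3 for other cilium genes and 1 to 6 for other photoreceptor cilium genes. The lowest counts came without Het2.

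In fits that left out 1 library the sign turned in 9 of the 46 genes, all uncalled with changes of at most 0.05 (*Ift57*, *Ift81*, *Ift172*, *Tctn1*, *Lca5*, *Arl3* and 3 others): *Arl6* was at -0.013 without Het1 and without KO1 (up to 0.099 with other libraries left out), *Bbs12* at -0.00080 without Het1 (up to 0.087), and *Fam161a* at 0.0083 without Het1, 0.0056 without Het2 and 0.053 without KO2 (down to -0.072). The cause of these changes was not tested. Deviations of same-numbered Het and KO libraries correlated at -0.197, 0.159 and -0.0739 across genes. Pairs of unlike number ran from -0.304 (Het2 and KO3) to 0.262 (Het1 and KO3). These values cover all genes at once and cannot decide whether replicate numbers pair the libraries for single genes. With the replicate block the SE fell for *Rp1* (0.284 to 0.121) and *Tulp1* (0.094 to 0.039) and rose for *Rpgrip1* (0.096 to 0.112). With the replicate number as a block, 1268 genes and 5 cilium genes were called: *Ift27* (adjusted p 0.0517) and *Rpgrip1* (0.0584) were lost and *Rp1l1* (0.0447) was added. Signs of all 46 genes, *Mak* and marker counts without each library were computed after seeing the data.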

Other observations

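Genes of motile cilia, which retinal cells lack, were read as a further list beside the primary cilium genes. Of 20 such genes 3 were called in KO against Het by edgeR (15%), beside 7.22% of all genes tested, with a median log2 fold change of 0.05. *Rsph1*, a radial spoke protein, was at 22.2 CPM in WT, 19.7 to 20.8 CPM in Het and 34.7 to 44.9 CPM in KO, a rise of 0.94 on the log2 scale (SE 0.10, adjusted p 0.0063) that was called in 14 of 14 alternatives. *Dnaic1*, an intermediate chain of axonemal dynein, was at 1.75 to 2.15 CPM in Het and 3.37 to 4.35 CPM in KO (0.99, adjusted p 0.0120, lost without Het2 at 0.0613 or Het3 at 0.0549), and one of its exons overlaps *Enho* on the opposite strand. *Ccdc40*, of the axonemal ruler, fell by 0.31 (adjusted p 0.0152), a call lost without Het2 (0.0730) or Het3 (0.0660). *Foxj1*, the transcription factor that switches on motile cilia, was at 7.41 to 10.1 CPM in all libraries (0.14, adjusted p 0.463).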
